A study of Homo sapiens with 18 samples.

Results

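The DNAJ genes encode the human HSP40 cochaperones, and 45 of them were followed here through 2 neuroblastoma lines treated with 2 related plant compounds. They were taken as every gene whose symbol in the annotation of the array begins with DNAJA, DNAJB or DNAJC followed by a number, with 1 pseudogene left out and no antisense gene found among them, out of 20045 genes with a named probe. Signals well above background (detection p under 0.01 on at least 3 arrays) were found for 40 of the 45 genes, and these were tested among 12975 genes in all. DNAJA4, DNAJB7, DNAJB8, DNAJB13 and DNAJC5B were not well above background on any of the 18 arrays. Of the 40 tested genes, 30 were detected on all 18 arrays and 10 on some of them.

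Each DNAJ protein carries a J domain, which binds an HSP70 chaperone and stimulates its ATPase so that HSP70 grips an unfolded client. Members differ outside that domain, and so place HSP70 in the cytosol, the endoplasmic reticulum, mitochondria, at the ribosome or on vesicles. DNAJB1 and other cytosolic members are textbook targets of the heat shock factor HSF1, whereas DNAJB9, DNAJB11 and DNAJC3 are known targets of the unfolded protein response of the endoplasmic reticulum. In neurons DNAJC5 guards synaptic vesicles, and in catecholamine-producing cells DNAJC12 assists the aromatic amino acid hydroxylases.

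The groups were SK-N-SH and IMR-32 cells exposed for 24 h to 1 µM withaferin A (WA), to 1 µM withanone (WN) or to the solvent DMSO, with 3 arrays labelled as biological replicates in each of the 6 groups. Both compounds belong to the withanolides, a class of steroidal lactones from Withania somnifera, and their structures place the epoxide and the hydroxyl groups differently. SK-N-SH and IMR-32 are established human neuroblastoma lines, IMR-32 being known for amplified MYCN, and 1 dose and 1 time were measured. The question set by the series is the response of high-risk neuroblastoma cells to these compounds, in a study concerned with ferroptosis.

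Values below are log2 normalized signals of Illumina HumanHT-12 v4 arrays, and differences are log2 values ± their standard error from limma (3 arrays in each group), with p adjusted over all 12975 genes. A level belongs to 1 probe and was not set against the level of another gene. In bulk RNA a smaller share of cells expressing a gene and less RNA per cell cannot be told apart. The array number limits the precision. The 6 WN arrays were dimmer at the top of the scale, with highest signals of 19100 to 21480 against 29826 to 37328 on the other 12, so array brightness cannot be told apart from WN treatment. Probes detected per array numbered 17102 to 20013 on WN arrays and 17773 to 20781 on the others. Of the adrenergic neuroblast markers with a probe, 6 of 7 were detected on all 9 arrays of SK-N-SH and 6 of 7 on all 9 of IMR-32, with TH on 0 and 5 of them. Of 6 mesenchymal markers, 5 were detected on all 9 SK-N-SH arrays and 3 on all 9 IMR-32 arrays. Markers of other cell types were detected in part. The immune markers CD14, PTPRC and CD3E were detected on 9, 0 and 0 SK-N-SH arrays and on 6, 1 and 0 IMR-32 arrays. The endothelial markers CDH5 and PECAM1 were detected on 0 SK-N-SH arrays and on 7 and 0 IMR-32 arrays, and the epithelial markers EPCAM and CDH1 on 9 and 0 SK-N-SH arrays and 1 and 0 IMR-32 arrays. Their part in the results was not tested.

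The promoters of 4 tested cytosolic members are printed because they hold pairs of inverted heat shock units, which are found in the known binding sites of heat shock factors. They run from 250 bases before to 50 bases after a RefSeq gene start in GRCh38.p14, 5′ to 3′ on the strand of the gene, and capitals mark matches to GAANNTTC or TTCNNGAA, a pair of inverted heat shock units, searched on both strands. They were chosen with the expression values known, and for each gene the start with the most such matches is printed. DNAJB1 has 3 starts and DNAJB4 has 2, and both genes have a start, not printed, without any such match.
DNAJB1 (chr19:14518348-14518647, minus strand): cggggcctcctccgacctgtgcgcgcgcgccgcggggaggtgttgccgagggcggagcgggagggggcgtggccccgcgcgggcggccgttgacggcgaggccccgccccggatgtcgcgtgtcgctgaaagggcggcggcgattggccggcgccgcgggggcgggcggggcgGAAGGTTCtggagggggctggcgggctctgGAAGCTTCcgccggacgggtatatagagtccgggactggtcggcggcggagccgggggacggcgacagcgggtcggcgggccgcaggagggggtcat
DNAJB4 (chr1:78004689-78004988, plus strand): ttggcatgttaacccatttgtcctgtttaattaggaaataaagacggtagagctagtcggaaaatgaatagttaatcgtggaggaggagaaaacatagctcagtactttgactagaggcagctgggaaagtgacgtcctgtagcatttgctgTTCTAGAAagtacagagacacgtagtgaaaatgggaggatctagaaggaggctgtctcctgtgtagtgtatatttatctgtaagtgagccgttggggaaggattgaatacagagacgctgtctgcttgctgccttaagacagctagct
DNAJA1 (chr9:33025023-33025322, plus strand): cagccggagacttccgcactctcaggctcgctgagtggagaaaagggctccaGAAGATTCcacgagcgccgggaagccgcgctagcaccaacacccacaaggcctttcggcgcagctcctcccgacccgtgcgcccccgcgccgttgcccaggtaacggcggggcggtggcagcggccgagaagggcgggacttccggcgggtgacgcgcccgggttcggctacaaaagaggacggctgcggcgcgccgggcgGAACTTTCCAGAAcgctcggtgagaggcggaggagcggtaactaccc
DNAJB6 (chr7:157336754-157337053, plus strand): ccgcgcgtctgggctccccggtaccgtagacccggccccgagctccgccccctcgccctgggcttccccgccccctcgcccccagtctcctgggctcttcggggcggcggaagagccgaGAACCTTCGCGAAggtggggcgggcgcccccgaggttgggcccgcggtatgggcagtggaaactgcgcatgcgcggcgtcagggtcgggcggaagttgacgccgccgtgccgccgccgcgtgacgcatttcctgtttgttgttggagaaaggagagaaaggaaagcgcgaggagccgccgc
The printed DNAJB1 promoter held GAANNTTC at -77 and -47, counted from the gene start to the first base of the match, and DNAJB4 held TTCNNGAA at -98. In DNAJA1 a pair lay at -198 and overlapping pairs at 4 and 9, which together make 3 alternating units (GAANNTTCNNGAA, or TTCNNGAANNTTC). DNAJB6 also held 3 alternating units, at -131. Such triplets stood in 0.49% of 35116 RefSeq promoters of the same length and in 2 of 53 counted promoters of 41 DNAJ genes. DNAJ promoters on a single chromosome were left out of the 53, but that chromosome was not left out of the 35116. GAANNTTC was found in 6.77% of all promoters and in 7 of the 53, and TTCNNGAA in 7.74% of all and 4 of the 53. Among genes not printed, the cytosolic DNAJA4, which was not well above background on any array, held GAANNTTC at -91 and -52 of a start. DNAJB7, likewise at background, held it at -208, and DNAJC6 at 43. DNAJB2, DNAJC2, DNAJC3 and DNAJB9, which rose with WA in SK-N-SH, held none of these letters in this window, and DNAJC15, which fell in SK-N-SH, held TTCNNGAA at -189. DNAJC3 and DNAJB9 did not hold the endoplasmic reticulum stress response element either (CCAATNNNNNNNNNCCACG, in 0.0769% of all promoters and 0 of the 53). A match is a description of the letters and was not tested for binding.

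With WA, genes of the cytosolic chaperones, DNAJB4, DNAJB2 and DNAJB1, rose in both lines, together with DNAJC3 of the endoplasmic reticulum, the ribosome-associated DNAJC2 and DNAJC24. In SK-N-SH, 12 DNAJ genes rose and 4 fell, beside 16.4% of all genes higher and 15.4% lower. In IMR-32, 7 rose and 0 fell, beside 8.04% higher and 6.47% lower. The median log2 difference of the 40 genes was 0.21 in SK-N-SH and 0.09 in IMR-32, against 0.02 over all genes in both. The lines shared 6 of the genes that rose, which is 50% of the SK-N-SH list and 85.7% of the IMR-32 list, and over all genes the 596 shared were 28% and 57.1% of those lists. At an unadjusted p under 0.05 stood 20 of the 40 in SK-N-SH and 15 in IMR-32 (50% and 37.5%), beside 42% and 27.7% of all genes. Without background correction, 15 of the 16 SK-N-SH calls and 6 of the 7 IMR-32 calls were kept, and 6 and 3 of the differences were smaller by more than 1.5 times, among them the dim DNAJB4, DNAJC2 and DNAJC3.

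**Figure D1:**
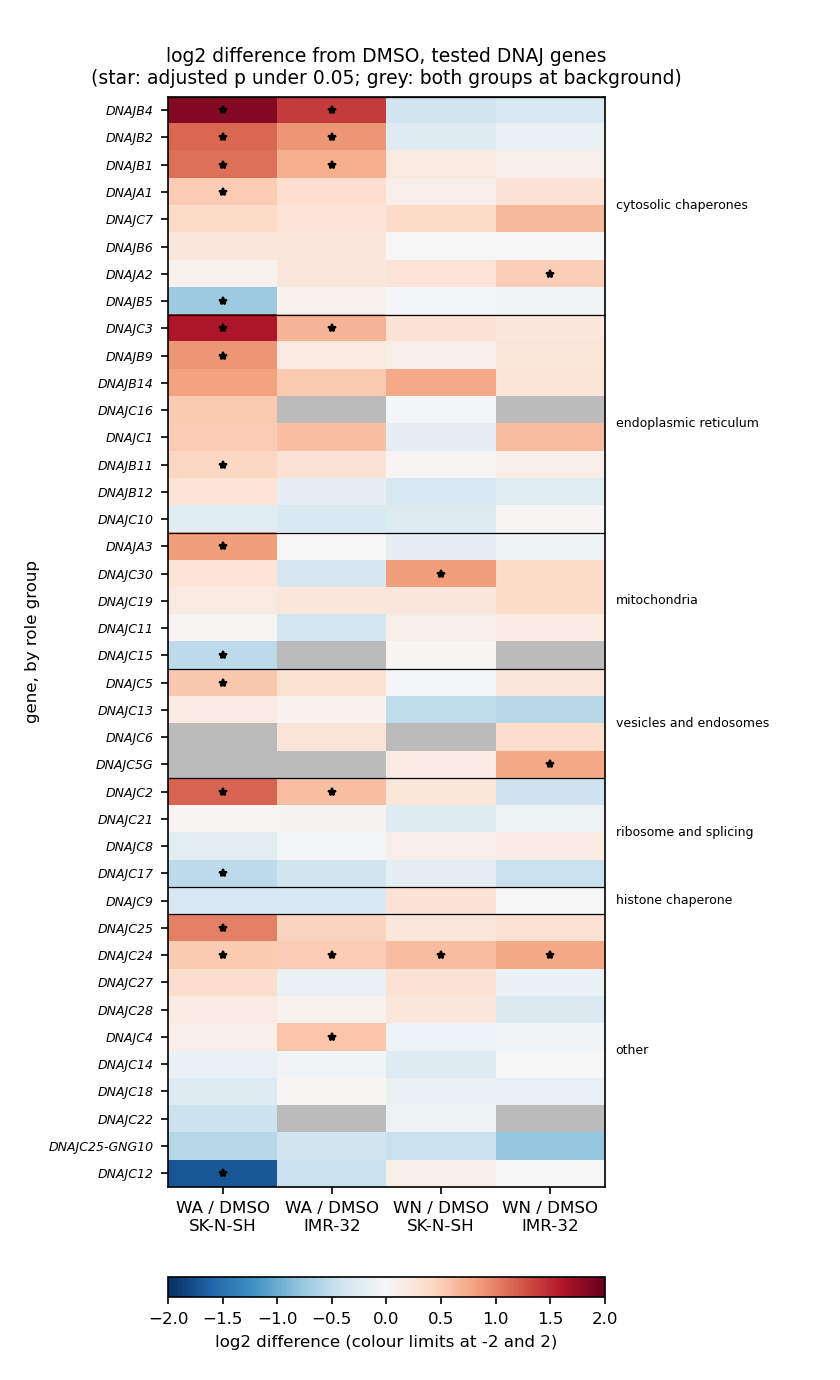
Log2 difference from DMSO (colour, red higher and blue lower) of the 40 tested DNAJ genes, in rows by role group, for WA and WN in SK-N-SH and IMR-32 (columns); stars mark adjusted p under 0.05, and grey cells have both groups at background on all arrays. The WA columns hold 16 and 7 stars and the WN columns 2 and 3, and DNAJC24 has a star in all 4.

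DNAJB4, a cytosolic HSP40 close to DNAJB1, showed the largest rise of the family in each line with background correction. In SK-N-SH its signals were 6.50, 8.04 and 7.08 with WA, against 4.98, 5.42 and 5.71 with DMSO. In IMR-32 they were 7.53, 7.79 and 8.10 with WA, against 6.17, 6.35 and 6.70 with DMSO. The groups did not overlap in either line, and the WA arrays of SK-N-SH spread most, with replicate 2 at the top. The differences were 1.84 ± 0.30 in SK-N-SH (3.58-fold, adjusted p = 0.000289) and 1.40 ± 0.30 in IMR-32 (2.64-fold, adjusted p = 0.00522). Without background correction they were 0.80 in SK-N-SH (adjusted p = 0.0016), below DNAJB2 and DNAJB1 at 1.06 and 1.01, and 0.78 in IMR-32 (adjusted p = 0.0042). A second probe of DNAJB4 gave 1.94 in SK-N-SH and 1.31 in IMR-32.

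DNAJB2, known as HSJ1, is a neuron-enriched member that passes clients to the ubiquitin-proteasome system. Its WA arrays read 10.91, 11.02 and 10.91 in SK-N-SH, against 9.81, 9.45 and 10.13 with DMSO. In IMR-32 the WA arrays read 9.33, 9.22 and 9.09, against 8.42, 8.32 and 8.27 with DMSO. No WA array came within the range of the DMSO arrays of its line. DNAJB2 rose by 1.15 ± 0.17 in SK-N-SH (adjusted p = 0.000134) and by 0.88 ± 0.17 in IMR-32 (adjusted p = 0.00254). A dimmer probe, detected on 6 arrays, gave 0.74 in SK-N-SH and 0.21 in IMR-32.

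DNAJB1, the classical stress-inducible partner of HSP70 in refolding, stood at 10.62, 11.46 and 10.52 with WA in SK-N-SH, against 9.74, 9.88 and 9.69 with DMSO. In IMR-32 it stood at 10.65, 10.28 and 10.47 with WA, against 9.69, 9.77 and 9.78 with DMSO. All WA arrays were above all DMSO arrays, and replicate 2 of SK-N-SH was again the highest. The rise was 1.10 ± 0.21 in SK-N-SH (2.14-fold, adjusted p = 0.000812) and 0.72 ± 0.21 in IMR-32 (1.65-fold, adjusted p = 0.0268). The IMR-32 call was lost when any 1 of 5 of the 6 arrays was left out (adjusted p up to 0.113).

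DNAJA1, a zinc-finger member that acts with HSP70 on newly made proteins and import precursors, read 13.15, 13.57 and 12.99 with WA in SK-N-SH, against 12.68, 12.78 and 12.70 with DMSO. In IMR-32 it read 13.35, 13.15 and 13.51 with WA, against 13.07, 13.02 and 12.89 with DMSO. The groups did not overlap in either line. DNAJA1 passed the test in SK-N-SH (0.51 ± 0.14, adjusted p = 0.0115) and not in IMR-32 (0.34 ± 0.14, adjusted p = 0.124). Without replicate 2 of the SK-N-SH WA arrays the adjusted p was 0.0677.

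DNAJB6, which holds back aggregation of polyglutamine proteins and whose promoter is printed above, did not pass the test in either line at the brighter of its probes. WA arrays of SK-N-SH were at 11.36, 12.22 and 11.18, against 11.35, 11.72 and 11.01 with DMSO. In IMR-32 they were at 10.55, 10.68 and 10.57, against 10.39, 10.56 and 10.19 with DMSO. The ranges overlapped in both lines. The differences were 0.23 (95% interval -0.23 to 0.69) in SK-N-SH and 0.22 (-0.24 to 0.68) in IMR-32, which leaves room for a change in either direction. A second DNAJB6 probe gave 0.43 in SK-N-SH, which passed (adjusted p = 0.034 over all probes), and 0.15 in IMR-32, which did not, so the probes disagree in SK-N-SH.

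DNAJB5, a cytosolic relative of DNAJB1, was the cytosolic member that fell in SK-N-SH. It read 7.54, 6.60 and 6.16 with WA, against 7.62, 7.14 and 7.70 with DMSO. The first WA array lay within the DMSO range and the other two below it. The difference was -0.72 ± 0.25 (adjusted p = 0.0392), and 10 of 15 other settings lost the call, among them the mean of both probes (-0.55, adjusted p = 0.085). In IMR-32 the difference of DNAJB5 was 0.07 ± 0.25. Of the 8 cytosolic members tested, 4 rose and 1 fell in SK-N-SH (median 0.45), and 3 rose and 0 fell in IMR-32 (median 0.31). That is 62.5% and 37.5% called, beside 31.9% and 14.5% of all genes.

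**Figure D2:**
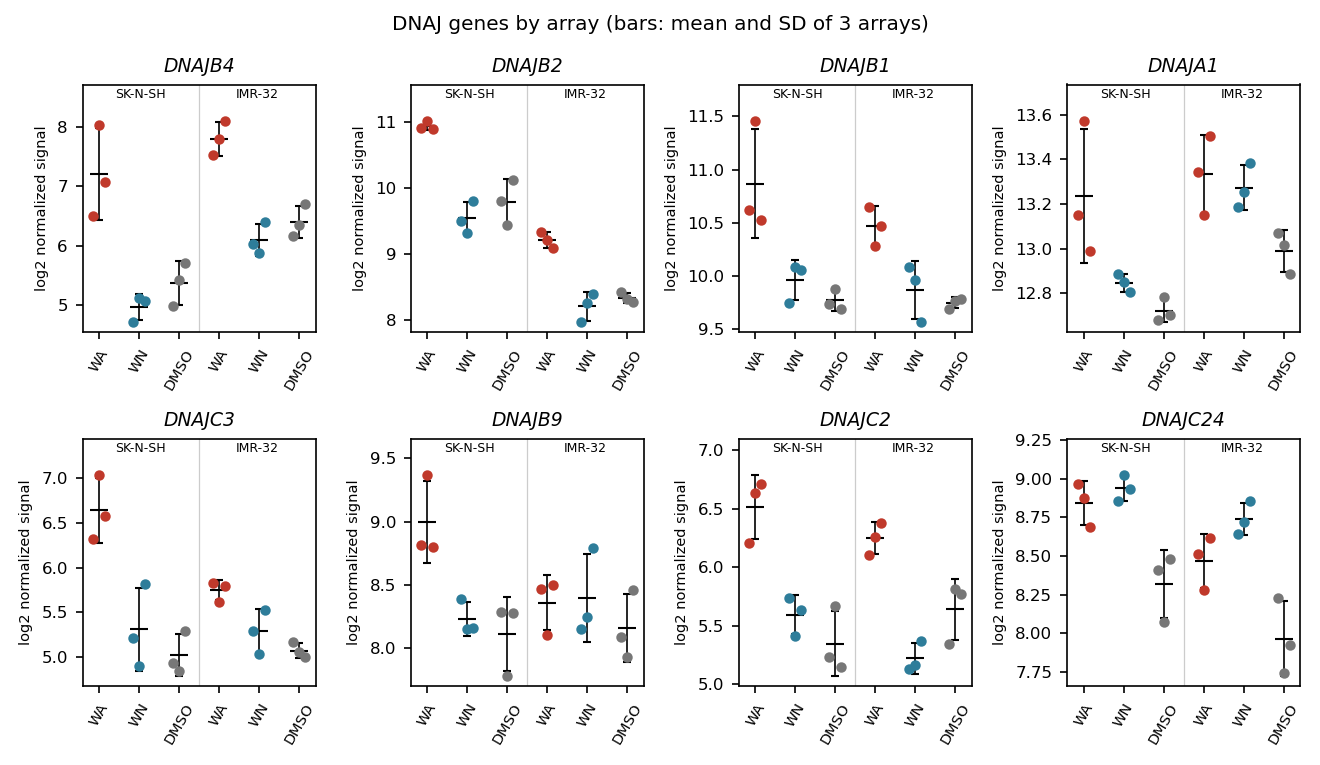
Log2 normalized signal (vertical axis) of 8 DNAJ genes on each array of the WA, WN and DMSO groups of SK-N-SH (left of each panel) and IMR-32 (right); points are arrays, bars the mean and SD of 3. WA points of DNAJB4, DNAJB2 and DNAJB1 stand above the DMSO points of their line, whereas for DNAJC24 both WA and WN points do.

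Among the members of the endoplasmic reticulum, DNAJC3, DNAJB9 and DNAJB11 rose with WA in SK-N-SH, which is 3 of 8 tested, and DNAJC3 was the only one of 8 past the threshold in IMR-32. These shares are 37.5% and 12.5%, beside 31.9% and 14.5% of all genes called. DNAJC3, the cochaperone of the HSP70 BiP known as P58IPK, had signals of 6.32, 7.04 and 6.57 with WA in SK-N-SH, against 4.93, 4.84 and 5.29 with DMSO. In IMR-32 the signals were 5.83, 5.62 and 5.79 with WA, against 5.17, 5.06 and 5.00 with DMSO. It was detected on 3 of 3 WA arrays and on 1 of 3 DMSO arrays in each line, so the DMSO levels lie near the background. The rise was 1.62 ± 0.22 in SK-N-SH (adjusted p = 6.34e-05) and 0.67 ± 0.22 in IMR-32 (adjusted p = 0.0492). Without background correction it was 0.57 in SK-N-SH (adjusted p = 0.000139). In IMR-32, 10 of 15 other settings lost the call, including each of the 6 that left out an array, and without background correction the difference there was 0.19 (adjusted p = 0.149).

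DNAJB9, known as ERdj4, a repressor of the stress sensor IRE1, read 8.82, 9.37 and 8.80 with WA in SK-N-SH, against 8.29, 7.78 and 8.28 with DMSO. In IMR-32 DNAJB9 read 8.47, 8.11 and 8.50 with WA, against 8.09, 7.94 and 8.46 with DMSO. The SK-N-SH groups did not overlap and the IMR-32 groups did. The difference was 0.88 ± 0.21 in SK-N-SH (adjusted p = 0.00485) and 0.20 ± 0.21 in IMR-32 (adjusted p = 0.614).

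DNAJB11, known as ERdj3, which binds unfolded secretory proteins and passes them to BiP, read 11.73, 12.03 and 11.69 with WA in SK-N-SH, against 11.32, 11.29 and 11.61 with DMSO. IMR-32 arrays read 11.85, 11.68 and 11.93 with WA, against 11.56, 11.42 and 11.61 with DMSO. The arrays were apart in both lines, by little. DNAJB11 passed the test in SK-N-SH (0.41 ± 0.14, adjusted p = 0.0292) and not in IMR-32 (0.29 ± 0.14, adjusted p = 0.174), and the SK-N-SH call was lost in 5 of 15 other settings. DNAJB14, a membrane protein of the same compartment, missed the threshold in SK-N-SH by little (0.81 ± 0.30, adjusted p = 0.0502). The 8 members had a median of 0.51 in SK-N-SH and 0.24 in IMR-32.

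Of 5 mitochondrial members tested, 1 rose and 1 fell in SK-N-SH, and 0 of 5 passed in IMR-32 by limma, where 1 reached an unadjusted p under 0.05. That is 40% and 0% called, beside 31.9% and 14.5% of all genes. DNAJA3, the matrix cochaperone known as Tid1, read 10.89, 11.44 and 11.65 with WA in SK-N-SH, against 10.50, 10.42 and 10.54 with DMSO. In IMR-32 it read 10.71, 10.63 and 10.79 with WA, against 10.54, 10.86 and 10.77 with DMSO. Only the SK-N-SH groups were apart. The difference was 0.84 ± 0.17 in SK-N-SH (adjusted p = 0.00137) and -0.01 ± 0.17 in IMR-32.

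DNAJC15, an inner-membrane protein that restrains complex I of the respiratory chain, fell in SK-N-SH, where it read 8.12, 7.87 and 7.92 with WA, against 8.55, 8.32 and 8.62 with DMSO. The groups were apart, and the difference was -0.53 ± 0.16 (adjusted p = 0.0169), a call lost when any 1 of 4 arrays was left out. In IMR-32 DNAJC15 was not well above background on any array. No fold is given there.

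DNAJC5, the cysteine string protein of synaptic vesicles, rose in SK-N-SH. It read 7.32, 7.51 and 7.25 with WA, against 6.91, 6.70 and 6.85 with DMSO, and in IMR-32 it read 7.46, 7.15 and 7.42 with WA, against 7.03, 6.99 and 7.09 with DMSO. The groups were apart in each line. The difference was 0.54 ± 0.12 in SK-N-SH (adjusted p = 0.00324) and 0.31 ± 0.12 in IMR-32 (adjusted p = 0.112). DNAJC6, the clathrin-uncoating auxilin of neurons, was detected on 3 of 18 arrays, of which 2 were IMR-32 WA arrays (signals 4.93 and 5.14) and 1 an IMR-32 WN array. It was not well above background on any SK-N-SH array or any DMSO array, and no difference from DMSO is given.

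DNAJC2, which works at the exit of the ribosomal tunnel with an HSP70-like partner, read 6.21, 6.64 and 6.71 with WA in SK-N-SH, against 5.23, 5.67 and 5.15 with DMSO. In IMR-32 it read 6.11, 6.26 and 6.38 with WA, against 5.34, 5.81 and 5.77 with DMSO. WA arrays were above DMSO arrays throughout. The rise was 1.17 ± 0.18 in SK-N-SH (adjusted p = 0.000161) and 0.61 ± 0.18 in IMR-32 (adjusted p = 0.0299). Without background correction it was 0.42 in SK-N-SH. The IMR-32 call was lost in 4 of 15 other settings, 3 of which left out an array, and the lowest difference among them all was 0.22.

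DNAJC17, which is associated with pre-mRNA splicing, fell in SK-N-SH. The WA arrays were at 5.99, 6.39 and 6.10, against 6.63, 6.82 and 6.58 with DMSO, without overlap (-0.52 ± 0.14, adjusted p = 0.00925). In IMR-32 they were at 6.89, 6.90 and 6.92, against 7.41, 7.33 and 7.15 with DMSO, a difference of -0.39 ± 0.14 that did not pass. These groups did not overlap either, and without background correction the difference was -0.22 and passed. DNAJC9, a chaperone of histones, did not pass with WA against DMSO in either line (-0.31 in SK-N-SH and -0.30 in IMR-32).

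DNAJC12 had the largest fall of the family, in SK-N-SH. Its signals there were 9.16, 8.31 and 8.14 with WA, against 10.44, 10.36 and 9.96 with DMSO. In IMR-32 they were 10.66, 10.48 and 10.92 with WA, against 11.15, 10.97 and 11.26 with DMSO. The arrays were apart in both lines, by far more in SK-N-SH. The difference was -1.72 ± 0.21 in SK-N-SH (3.29-fold lower, adjusted p = 3.33e-05) and -0.44 ± 0.21 in IMR-32 (adjusted p = 0.191). With each line fitted alone, the IMR-32 fall passed by limma (-0.44, adjusted p = 0.0429). The other 3 probes of DNAJC12 gave -1.59, -1.47 and -0.48 in SK-N-SH, and the last of these did not pass (adjusted p = 0.0524 over all probes).

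DNAJC25 and DNAJC4 belong to the members with other roles. DNAJC25 read 8.17, 8.42 and 8.48 with WA in SK-N-SH, against 7.38, 7.09 and 7.57 with DMSO, a rise of 1.01 ± 0.17 (adjusted p = 0.000295). The IMR-32 arrays read 7.98, 7.76 and 7.78 with WA, against 7.53, 7.28 and 7.39 with DMSO (0.44 ± 0.17, adjusted p = 0.0869). The arrays of DNAJC25 were apart in both lines. DNAJC4 read 8.51, 8.54 and 8.44 with WA in IMR-32, against 7.93, 8.00 and 7.88 with DMSO, and the difference was 0.56 ± 0.15 (adjusted p = 0.021). That call was lost in 5 of 15 other settings, among them the mean of its probes (0.40, adjusted p = 0.0693). In SK-N-SH DNAJC4 read 9.48, 9.07 and 9.70 with WA, against 9.23, 9.12 and 9.51 with DMSO, which overlapped (0.13 ± 0.15). Its second probe gave 0.44 in SK-N-SH and 0.24 in IMR-32, neither of which passed.

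DNAJC24, which takes part in making diphthamide on elongation factor 2, rose with both compounds in both lines. In SK-N-SH it read 8.97, 8.87 and 8.69 with WA and 8.86, 9.02 and 8.93 with WN, against 8.41, 8.07 and 8.48 with DMSO. In IMR-32 it read 8.51, 8.28 and 8.62 with WA and 8.64, 8.72 and 8.85 with WN, against 8.23, 7.75 and 7.92 with DMSO. Every treated array of DNAJC24 stood above the DMSO arrays of its line. Within a line the WA and WN differences share the same DMSO arrays, so they are not independent. The differences with WA were 0.52 ± 0.15 in SK-N-SH (adjusted p = 0.0144) and 0.50 ± 0.15 in IMR-32 (adjusted p = 0.0341), and 5 of 15 other settings lost the IMR-32 call.

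HSP70 genes are the partners of these cochaperones. Of 11 tested HSP70 genes, 8 rose and 0 fell with WA in SK-N-SH (median 0.82), and 5 rose and 1 fell in IMR-32 (median 0.28). That is 72.7% and 54.5% called, beside 31.9% and 14.5% of all genes. HSPA1B, an inducible HSP70, rose by 2.26 ± 0.32 in SK-N-SH and 1.38 ± 0.32 in IMR-32. HSPA6, an HSP70 made only under stress in most cells, rose by 3.40 ± 0.63 in SK-N-SH, where 1 of 3 DMSO arrays detected it. In IMR-32 HSPA6 had mean signals of 7.16 with WA and 4.53 with DMSO, was detected on 0 of 3 DMSO arrays and was at least 4.22-fold higher (adjusted p = 0.0097). HSPA8, the constitutive HSP70, rose by 0.82 ± 0.12 in SK-N-SH and 0.43 ± 0.12 in IMR-32. HSPA5, which encodes BiP, the partner of DNAJC3, DNAJB9 and DNAJB11, did not pass in SK-N-SH (-0.15 ± 0.16, adjusted p = 0.52) and fell in IMR-32 (-0.49 ± 0.16, adjusted p = 0.046).

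Among 17 regulators of HSP70, 5 rose and 2 fell with WA in SK-N-SH, and 2 rose and 1 fell in IMR-32, which is 41.2% and 17.6% called beside 31.9% and 14.5% of all genes. BAG3, a nucleotide exchange factor of stressed cells, rose by 1.79 ± 0.24 in SK-N-SH and 1.23 ± 0.24 in IMR-32. SIL1, the exchange factor of BiP, rose by 1.03 ± 0.20 in SK-N-SH and 1.05 ± 0.20 in IMR-32. ST13, which stabilises HSP70 bound to its client, fell by 0.97 in SK-N-SH (adjusted p = 0.000337) and gave 0.17 ± 0.16 in IMR-32. Of 3 tested J-domain genes with other names, 1 rose in SK-N-SH, HSCB of iron-sulfur cluster transfer (0.72 ± 0.18), and 0 changed in IMR-32 by limma, where 1 had an unadjusted p under 0.05.

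With WN the family changed little. In SK-N-SH 2 genes rose and 0 fell, beside 0.925% of all genes higher and 0.909% lower. In IMR-32 3 rose and 0 fell, beside 2.4% higher and 2.19% lower. The medians of the 40 genes were 0.07 and 0.08, against -0.02 over all genes in SK-N-SH and 0.00 in IMR-32. DNAJC24 was the gene that rose in both lines (0.62 ± 0.15 in SK-N-SH, adjusted p = 0.0479, and 0.77 ± 0.15 in IMR-32, adjusted p = 0.0113). In SK-N-SH its call was lost when any 1 of the 6 arrays was left out (adjusted p up to 0.166).

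DNAJC30, a mitochondrial member linked to exchange of complex I subunits, rose with WN in SK-N-SH. It read 8.11, 7.99 and 7.83 with WN, against 7.30, 7.18 and 6.91 with DMSO, with no overlap (0.84 ± 0.16, adjusted p = 0.0218), and 5 of 14 other settings lost the call. A second DNAJC30 probe gave 0.81. DNAJA2, a cytosolic zinc-finger member, rose with WN in IMR-32, where it read 11.30, 11.35 and 11.41 with WN, against 10.81, 10.92 and 10.89 with DMSO (0.49 ± 0.11, adjusted p = 0.0204), a call lost when any 1 of 4 arrays was left out. DNAJC5G, a testis-enriched relative of DNAJC5, was detected on 2 of 3 WN arrays and 0 of 3 DMSO arrays of IMR-32. Its means there were 5.23 and 4.46, and it was at least 1.10-fold higher with WN (adjusted p = 0.0127). In all, 3 arrays detected DNAJC5G, the fewest the filter allowed. Its being tested thus rested on the WN arrays where it was high, which limits what this p-value shows. The call was lost in 3 of 13 other settings, among them no background correction (0.20, adjusted p = 0.066).

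The genes that rose most with WA did not pass with WN. DNAJB4 differed from DMSO by -0.40 ± 0.30 in SK-N-SH and -0.31 ± 0.30 in IMR-32 with WN. DNAJB2 differed by -0.25 ± 0.17 and -0.13 ± 0.17 in the same order of lines, and DNAJB1 by 0.19 ± 0.21 and 0.12 ± 0.21. DNAJC3 gave 0.29 ± 0.22 and 0.21 ± 0.22, and DNAJC12 gave 0.11 ± 0.21 and 0.01 ± 0.21. DNAJA1 gave 0.12 ± 0.14 and 0.28 ± 0.14, DNAJB9 gave 0.12 ± 0.21 and 0.24 ± 0.21, and DNAJB11 gave 0.03 ± 0.14 and 0.14 ± 0.14. DNAJB6 was at -0.01 ± 0.22 and 0.00 ± 0.22, and DNAJC5 at -0.04 ± 0.12 and 0.23 ± 0.12. With the replicate number as a block, 6 DNAJ genes passed with WN in IMR-32, 5 higher and 1 lower, beside 7.61% of all genes called in that fit. When each line was fitted alone, 0 passed in SK-N-SH, of 0 among all genes. Of the HSP70 genes, HSPA8 rose with WN in IMR-32 (0.67 ± 0.12), and the J-domain gene GAK fell there (-0.62 ± 0.15).

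The compounds were compared as 1 pair at the same dose and time in each of the 2 lines, with p adjusted over all genes. These comparisons share the WA arrays with those against DMSO. In SK-N-SH, 14 DNAJ genes were higher with WA than with WN and 6 were lower, beside 20.6% and 17.6% of all genes. In IMR-32, 6 were higher and 3 lower, beside 12.6% and 11.2%. The 5 genes higher in both lines were DNAJB1, DNAJB2, DNAJB4, DNAJC2 and DNAJC13, which is 35.7% of the SK-N-SH list and 83.3% of the IMR-32 list, beside 37.5% and 61.6% over all genes.

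DNAJB4 was 2.24 ± 0.30 higher with WA than with WN in SK-N-SH (4.73-fold, adjusted p = 4.42e-05) and 1.71 ± 0.30 higher in IMR-32 (3.27-fold, adjusted p = 0.000834). Its WN arrays read 4.71, 5.12 and 5.07 in SK-N-SH, 1 of them not detected, and 6.02, 5.88 and 6.40 in IMR-32. DNAJB2 was 1.40 ± 0.17 higher in SK-N-SH and 1.00 ± 0.17 higher in IMR-32. DNAJB1 was 0.90 ± 0.21 higher in SK-N-SH and 0.60 ± 0.21 higher in IMR-32, and 6 of 14 other settings lost the IMR-32 call. DNAJC2 was 0.92 ± 0.18 and 1.03 ± 0.18 higher in the same order of lines.

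DNAJC13, which sorts cargo on endosomes, was 0.67 ± 0.21 higher with WA than with WN in SK-N-SH and 0.64 ± 0.21 higher in IMR-32. Its WA arrays read 7.76, 7.94 and 8.34 in SK-N-SH, against 7.34, 7.28 and 7.40 with WN. Its IMR-32 arrays read 7.45, 7.80 and 7.86 with WA, against 7.03, 6.92 and 7.26 with WN, and 6 of 14 other settings lost that call (adjusted p up to 0.118). Against DMSO, DNAJC13 passed with neither compound, at 0.16 and 0.08 with WA in SK-N-SH and IMR-32, and at -0.51 and -0.56 with WN. DNAJC30 was lower with WA than with WN in both lines (-0.57 ± 0.16 in SK-N-SH and -0.72 ± 0.16 in IMR-32).

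In SK-N-SH alone, DNAJC3 (1.33 ± 0.22), DNAJA3 (1.02 ± 0.17), DNAJC25 (0.79 ± 0.17), DNAJB9 (0.76 ± 0.21), DNAJC1 (0.71 ± 0.21), DNAJB12 (0.60 ± 0.16), DNAJC5 (0.58 ± 0.12), DNAJA1 (0.39 ± 0.14) and DNAJB11 (0.38 ± 0.14) passed as higher with WA than with WN. DNAJA1 and DNAJB11 each lost the call in 5 of 14 other settings, with the lowest values of 0.22 (adjusted p = 0.216) and 0.28 (adjusted p = 0.15) without replicate 2 of the SK-N-SH WA arrays. Of the 9, DNAJB12 had 4 probes whose differences were 0.29 to 1.24. The probe at 1.24 was also higher with WA than with WN in IMR-32 (0.83, adjusted p = 0.00279 over all probes). It was lower with WN than with DMSO in SK-N-SH (-0.80, adjusted p = 0.0341 over all probes). The other DNAJB12 probes passed in neither of these. Lower with WA there were DNAJC12 (-1.83 ± 0.21), DNAJB5 (-0.69 ± 0.25), DNAJC9 (-0.60 ± 0.15), DNAJC15 (-0.55 ± 0.16), DNAJC30 and DNAJC8 (-0.36 ± 0.12), a splicing factor. The other DNAJC12 probes gave -1.66, -1.65 and -0.23 there, and the last of these did not pass. DNAJB5 lost the call in 10 of 14 other settings (-0.39, adjusted p = 0.232, without replicate 3 of the WA arrays), and DNAJC8 in 4. In IMR-32, DNAJC4 was higher with WA than with WN (0.61 ± 0.15) and DNAJC11 lower (-0.54 ± 0.16, a call lost in 5 of 14 other settings). DNAJC5G, detected there on 0 of 3 WA arrays and 2 of 3 WN arrays with means of 4.46 and 5.23, was at least 1.19-fold lower (adjusted p = 0.00209). That call was lost in 0 of 13 other settings, and without background correction the difference was -0.21 (adjusted p = 0.0234). The same WN arrays let DNAJC5G pass the filter, which limits these p-values too. Genes that passed in 1 line are not thereby shown to differ between the lines.

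Where the compounds did not differ past the threshold, the intervals were still wide. DNAJC24 gave -0.09 (95% interval -0.41 to 0.23) in SK-N-SH and -0.27 (-0.59 to 0.05) in IMR-32 for WA minus WN. DNAJB6 gave 0.24 (-0.22 to 0.70) in SK-N-SH and 0.22 (-0.24 to 0.68) in IMR-32. In IMR-32, DNAJC3 gave 0.46 (-0.0042 to 0.92), DNAJA1 0.06 (-0.24 to 0.36), DNAJB9 -0.04 (-0.49 to 0.41), DNAJB11 0.15 (-0.14 to 0.44), DNAJC5 0.08 (-0.18 to 0.34) and DNAJC12 -0.46 (-0.91 to -0.0035, adjusted p = 0.137). With each line fitted alone, DNAJC3 and DNAJC12 passed in IMR-32 (adjusted p = 0.0296 and 0.0275 by limma). DNAJC6 was not well above background on the SK-N-SH arrays.

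**Figure D3:**
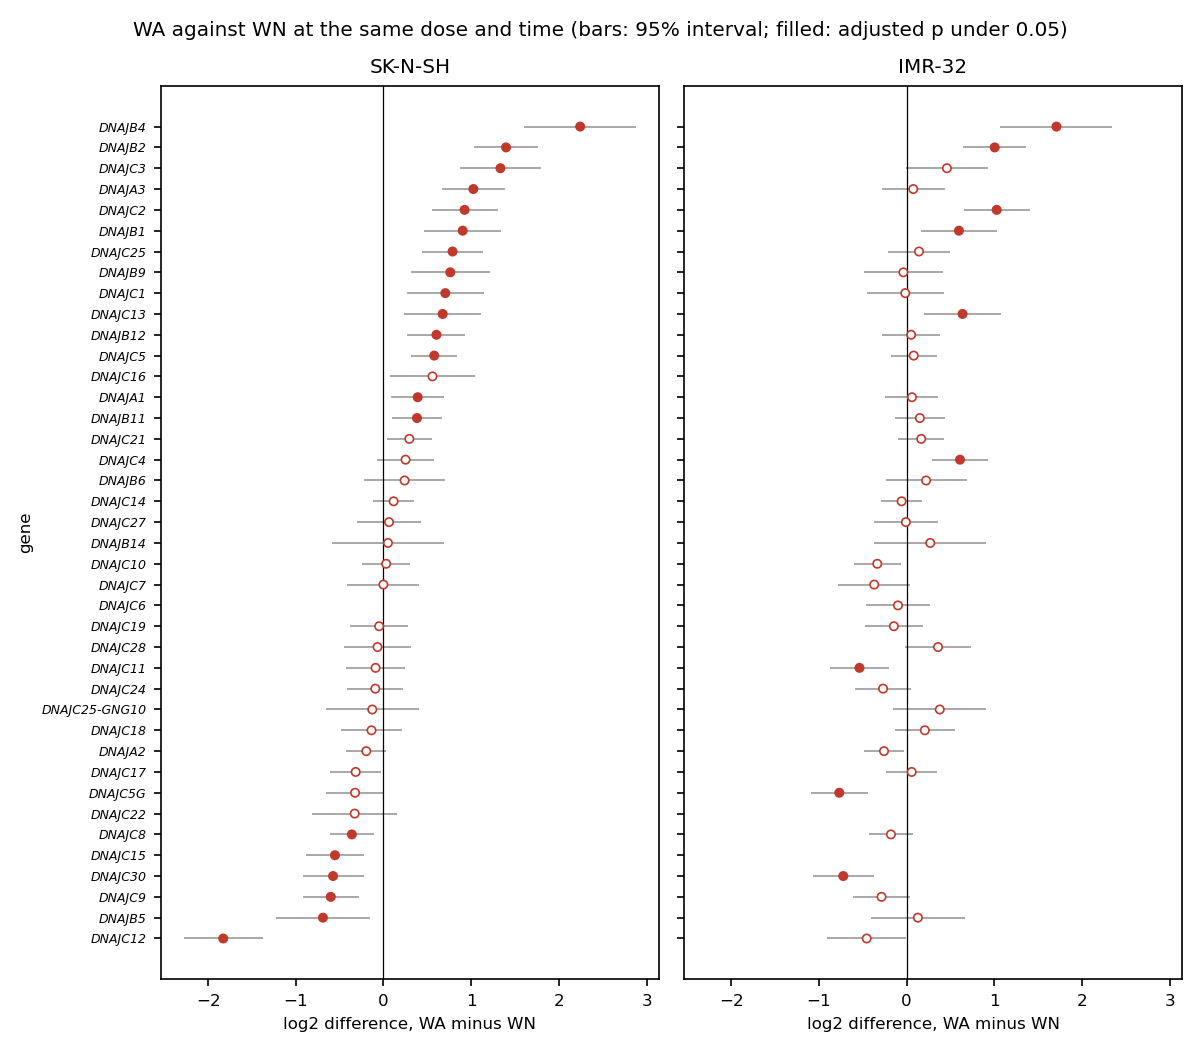
Log2 difference of WA minus WN (horizontal axis, 95% interval) for the 40 tested DNAJ genes in SK-N-SH (left) and IMR-32 (right), ordered by the SK-N-SH value; filled points have adjusted p under 0.05, and a gene at background in both groups has no point. DNAJB4 is at the top in both panels, at 2.24 and 1.71, and DNAJC12 at the bottom in SK-N-SH, at -1.83.

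The WA response itself was compared between the lines by an interaction term, in SK-N-SH minus IMR-32. DNAJA3 passed as higher and DNAJC12 as lower, 1 gene each way of 40, beside 3.31% and 3.35% of all genes. The difference of the WA effect was 0.85 ± 0.24 for DNAJA3 (adjusted p = 0.0424) and -1.28 ± 0.30 for DNAJC12 (adjusted p = 0.0191). Both calls were lost when the arrays were normalized and fitted without WN (adjusted p = 0.0813 for DNAJA3 and 0.0591 for DNAJC12), with values of 0.86 and -1.28. With all arrays, the other probes of DNAJC12 gave -1.16, -0.99 and -0.38, of which only the first passed (adjusted p = 0.0456 over all probes). DNAJC3 gave 0.95 ± 0.31 and missed the threshold (adjusted p = 0.0756), but blocking on replicate number took it past (adjusted p = 0.0437). For DNAJB4, DNAJB2 and DNAJB1 the difference was 0.44 ± 0.43, 0.27 ± 0.24 and 0.38 ± 0.29, none past the threshold. DNAJB9 (0.68 ± 0.30), DNAJB5 (-0.79 ± 0.36), DNAJA1 (0.17 ± 0.20), DNAJB6 (0.01 ± 0.31), DNAJB11 (0.12 ± 0.19) and DNAJC5 (0.24 ± 0.17) did not pass either.

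The first SK-N-SH WA replicate stood nearer to DMSO than the other two for several genes. Against the DMSO mean of the line, DNAJC12 differed by -1.10, -1.94 and -2.11 on the 3 WA arrays, and DNAJB4 by 1.13, 2.67 and 1.71. The median over the 40 genes was 0.05, 0.33 and 0.27 on these arrays, and 0.14, 0.14 and 0.13 on the IMR-32 WA arrays. Without that first replicate, 6 DNAJ genes passed in the comparison of the WA response between lines, 4 higher and 2 lower, beside 17.2% of all genes called in that fit, and DNAJC3 was among the higher ones (1.11, adjusted p = 0.0225). For the WN response, 0 of 40 passed by limma, beside 0% of all genes in each direction, and 3 had an unadjusted p under 0.05. The 40 differences ran from -0.81 for DNAJC1 to 0.66 for DNAJC2.

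**Figure D4:**
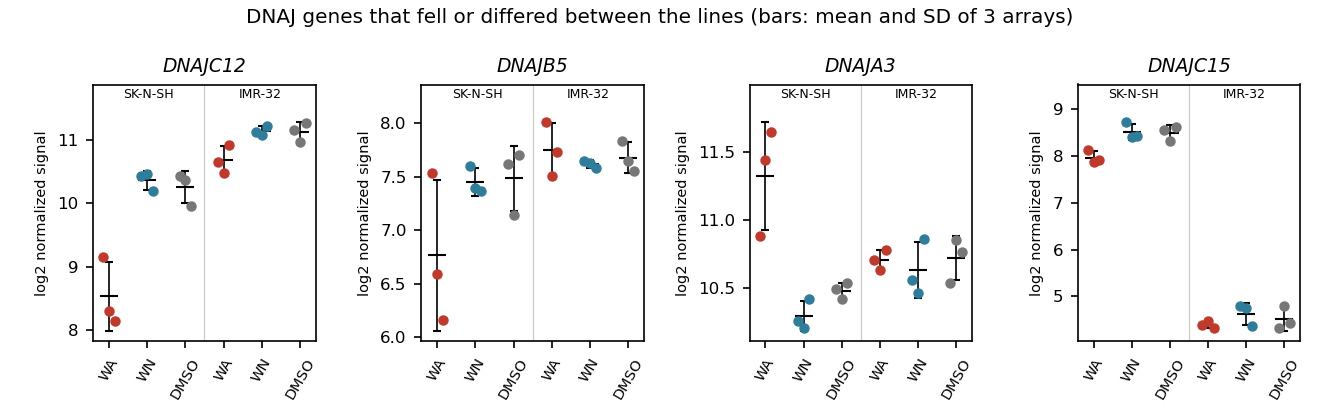
Log2 normalized signal (vertical axis) of DNAJC12, DNAJB5, DNAJA3 and DNAJC15 on each array of the WA, WN and DMSO groups of SK-N-SH (left of each panel) and IMR-32 (right); points are arrays, bars the mean and SD of 3. DNAJC12 drops to between 8.14 and 9.16 on the SK-N-SH WA arrays, and DNAJC15 stays under 4.8 on all IMR-32 arrays.

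Before any compound, the lines differed in a part of the family. With DMSO, 7 DNAJ genes were higher and 4 lower in SK-N-SH than in IMR-32, beside 27% and 24.5% of all genes. That is 27.5% of the family called, a smaller share than the 51.5% of all genes. DNAJC15 had signals of 8.55, 8.32 and 8.62 in SK-N-SH, against 4.32, 4.79 and 4.42 in IMR-32, where 0 of 9 arrays of any treatment detected it. It was at least 10.7-fold higher in SK-N-SH (means 8.50 and 4.51, adjusted p = 2.04e-12), and the difference of the means was 1.89 without background correction. DNAJC22 was detected on 3 of 3 SK-N-SH and 0 of 3 IMR-32 DMSO arrays and was at least 1.19-fold higher (means 5.33 and 4.57, adjusted p = 0.011).

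DNAJB2 was 1.46 ± 0.17 higher in SK-N-SH than in IMR-32 with DMSO, and its dimmer probe gave 0.30. DNAJC4 was 1.35 ± 0.15 higher, with 0.22 at its second probe, and DNAJB6 0.98 ± 0.22 higher, with 0.56 at its second. DNAJC10, a disulfide reductase of the endoplasmic reticulum, was 0.48 ± 0.13 higher and DNAJC11 of the mitochondrial cristae 0.47 ± 0.16 higher. Lower in SK-N-SH were DNAJB4 (-1.04 ± 0.30), DNAJC12 (-0.87 ± 0.21), DNAJC17 (-0.62 ± 0.14) and DNAJC30 (-0.61 ± 0.16). DNAJB1 did not pass (0.02 ± 0.21), nor did DNAJC3 (-0.05 ± 0.22), DNAJB9 (-0.04 ± 0.21), DNAJB11 (-0.12 ± 0.14), DNAJA1 (-0.27 ± 0.14) or DNAJC5 (-0.22 ± 0.12). DNAJB4 lost its call without background correction and in the deposited normalized values, where it gave -0.37 at the lowest size (adjusted p up to 0.0755).

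**Figure D5:**
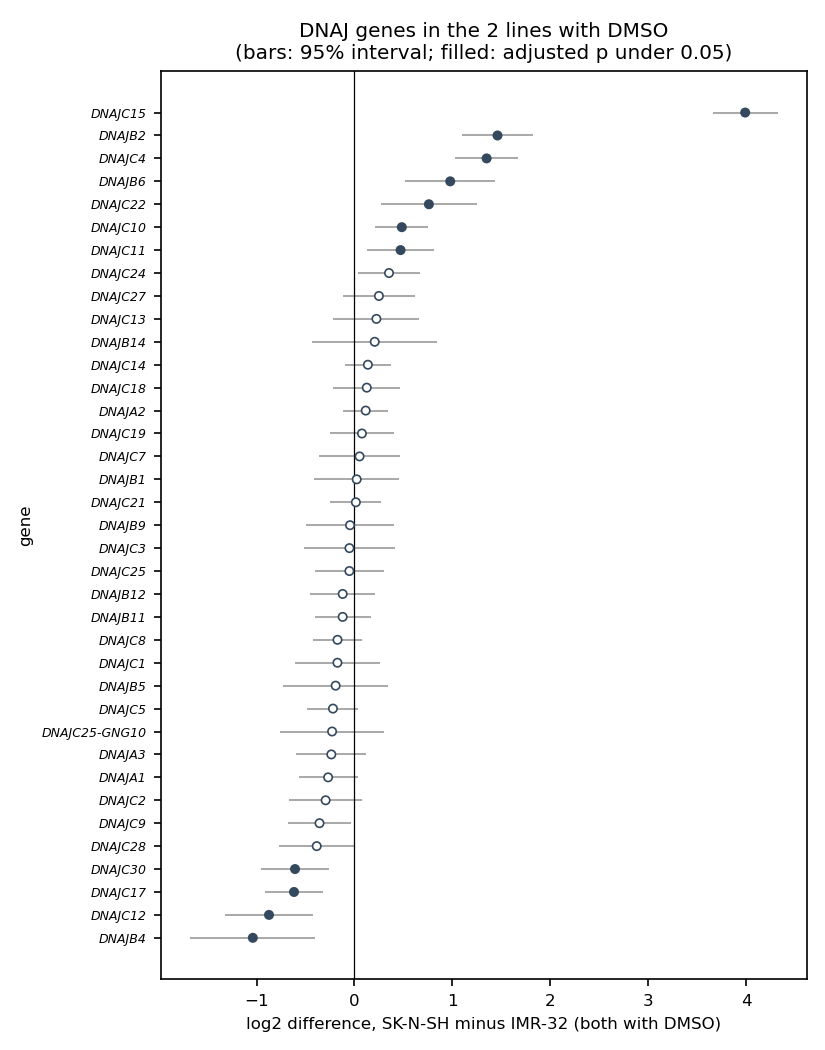
Log2 difference of SK-N-SH minus IMR-32, both with DMSO (horizontal axis, 95% interval), of the DNAJ genes detected in either line with DMSO; filled points have adjusted p under 0.05. DNAJC15 stands alone at 3.99, with IMR-32 at background, and DNAJB4 is the lowest at -1.04.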

How the data were processed

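RNA of SK-N-SH and IMR-32 cells was measured on 18 arrays in 6 groups of 3. The deposited signals are, per the file headers, bead-summarised intensities on a linear scale without normalization between arrays, each with a detection p-value, also deposited by the authors. The authors' deposited matrix of normalized log2 values served as an alternative. Per the submitters' processing notes limma was used, its version not given in the sources used here. Deposited detection p-values departed from the signals on the 6 WN arrays (66.5% to 68.1% of probes within 0.02 of a falling function of their own signal, at least 99.987% elsewhere). They were rederived from the signals (running median of 101 probes), and the deposited ones kept as an alternative.

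Normalization used neqc (limma 3.58.1, R 4.3.3, offset 16) on 47222 probes, 2 more being left out for missing values. Of these 23320 were kept (detection p under 0.01 on at least 3 arrays), and each gene was taken as its kept probe with the highest mean, 12975 genes in all. The platform's probe table named them, with symbols updated through RefSeq, and 57 of 70 DNAJ probes were kept, 12 genes having several. DNAJC25-GNG10 is a readthrough whose probe may not be told from its neighbours. One model with a mean per group (12 residual degrees of freedom) was fitted with lmFit and eBayes and tested on simulated data. Plots were made in Python 3.11.15 (matplotlib 3.10.9). The members and lists were chosen with earlier results of these data known.

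Genes were named in a comparison if among the 8 highest and 8 lowest called, or if DNAJA1, DNAJA4, DNAJB1, DNAJB2, DNAJB4, DNAJB6, DNAJB9, DNAJB11, DNAJC3, DNAJC5, DNAJC6 or DNAJC12; other members were named after their values were seen, among them DNAJB14 and DNAJC9, as were HSPA5 and HSPA8 of the HSP70 list. Alternatives were the replicate block, no background correction, the deposited matrix, the deposited detection p-values, 2 other filters, the mean of probes, each line alone and each array left out, and, added after seeing the data, a fit without the WN arrays. Deviations of arrays with the same number correlated at 0.161 to 0.663 across genes for WA or WN with DMSO within a line, so these numbers may pair samples. The main fit, which gave the p-values above, did not use this pairing. The replicate block did, and its counts are given below as an alternative.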

Additional observations from a re-analysis of the deposited data

Results flagged for a closer look

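For 2 DNAJ genes the WA response differed between the lines by the interaction term. DNAJA3 differed by 0.85 on the log2 scale, SK-N-SH minus IMR-32, having risen in SK-N-SH (0.84) and not in IMR-32 (-0.01). DNAJC12 differed by -1.28, with -1.72 in SK-N-SH and -0.44 in IMR-32. Its other probes differed by -1.16, -0.99 and -0.38, of which only the first passed. Of 20 other settings, 10 lost the DNAJA3 call and 4 the DNAJC12 call, and the values ranged from 0.69 to 1.07 for DNAJA3 and from -1.59 to -0.95 for DNAJC12.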

How the results depend on the processing

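No result changed direction past a threshold in any alternative that was run. In the WA comparison of IMR-32, leaving out 1 array gave 3 to 4 DNAJ genes in place of 7. Over all genes 8.66% to 12.3% were called in those fits, in place of 14.5%. There 1 DNAJ gene fell without background correction, in the deposited matrix or with the deposited detection p-values, beside 13.9% to 15.6% of all genes called. With each line fitted alone 2 fell there, beside 21.2% of all genes called, against 0 in the main fit. DNAJB2 and DNAJB4 kept their calls in all 15 settings there. With WN in IMR-32, the replicate block gave 6 in place of 3, and leaving out 1 array gave 1 to 3. Of all genes, 7.61% were called with the block and 0.963% to 3.99% without 1 array, in place of 4.59%. With WN in SK-N-SH, the mean of kept probes gave 1 in place of 2, each line fitted alone 0, and leaving out 1 array 0 to 1. The shares of all genes called were 1.35%, 0% and 0.00771% to 1.17% in the same order, in place of 1.83%. For the WA response between lines, the fit without the WN arrays gave 0 in place of 2, and leaving out 1 array gave 0 to 6. Of all genes, 4.25% were called without the WN arrays and 4% to 17.2% without 1 array, in place of 6.66%. The cause of these shifts was not tested. Fits that left arrays out also held fewer arrays. With WA the replicate block gave 8 in place of 7 genes in IMR-32, beside 19.7% in place of 14.5% of all genes. In SK-N-SH it gave 21 in place of 16, beside 38.2% in place of 31.9%. For WA against WN it gave 11 in place of 9 in IMR-32, beside 29.9% in place of 23.7% of all genes. In SK-N-SH that comparison gave 21 in place of 20, beside 43.8% in place of 38.3%. Of the same-number pairs of WA and WN arrays, 2 of 6 correlated under 0.1 (0.065 and 0.042). With the block DNAJC12 passed for WA against WN in IMR-32 (-0.46, adjusted p = 0.0426), DNAJC22 was lost between the lines with DMSO (0.64, adjusted p = 0.0722), and of the genes named by the rule in each comparison only DNAJC3 changed its call besides. Of values of named genes past the threshold, 818 kept their call under alternatives and 138 lost it, over 66 results, and of those not past it 7 gained one. Without background correction 1 to 2 calls were lost in each comparison but WN in SK-N-SH and the responses between lines. Dim probes limit DNAJC3, DNAJC5G, DNAJC6, DNAJC15 and DNAJC22, whose levels near background are bounds.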
